A study of Mus musculus with 16 samples.

Results

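The genes described here are 10 that are known for their expression in fat cells: Adipoq, Fabp4, Cidec, Plin1, Lpl, Pparg, Cfd, Pck1, Retn and Lep. They were chosen by name, with earlier results of these data known. A gene was read where its symbol was the only one annotated to a probe set of the array. Of the 10, 8 were found, with 13 of the array's 22690 probe sets between them. Plin1 and Cfd were not analysed here. All 8 passed the filter on dim probe sets, which left 9058 genes in all.

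Total skin RNA was measured on 16 Affymetrix Mouse Expression Set 430 A arrays. Transgenic mice were K14deltaNB-cateninER animals of line D2, which carry a stabilised β-catenin fused to a tamoxifen-responsive receptor domain under the keratin 14 promoter, active in basal keratinocytes of the epidermis and hair follicle but not in fat cells, and they were set against wild-type C57BL/6 mice. Skin was taken after 0, 1 or 7 days of 4-hydroxytamoxifen, with 2, 3 and 3 transgenic arrays and 3, 3 and 2 wild-type arrays at these days. Both genotypes received the drug and neither had a vehicle group, so drug, handling and time cannot be told apart within a genotype. The transgenic skin comes from 1 line, and age and sex were not used here. The labels name mice in the plural for some arrays and a single mouse for others, and do not say that each array had an animal of its own, so each p-value reflects only how far these samples scatter, which may be partly technical.

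Mouse skin holds a layer of white fat cells in the lower dermis, around the bases of the hair follicles and above a thin sheet of muscle. This layer thickens while hair grows and thins while it rests. A white fat cell takes up fatty acids that lipoprotein lipase (Lpl) frees from blood lipoproteins, carries them inside the cell on a fatty acid binding protein (Fabp4), and stores them as triglyceride in a single large droplet whose growth Cidec promotes. Pck1 makes the glycerol backbone for that triglyceride, PPARγ (Pparg) is the nuclear receptor that drives fat cell differentiation and many of these genes, and adiponectin (Adipoq), leptin (Lep) and resistin (Retn) are hormones that fat cells release.

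The promoters of 4 of the 8 genes are shown because PPARγ and the C/EBP factors are the known regulators of the fat cell programme. Each is the 250 bases before an annotated transcription start in RefSeq's table for GRCm38.p6, which lists 9 starts of 6 of the 8 genes. Capitals mark matches to TTGCNNAA, a C/EBP-type motif, on either strand.
Adipoq, chr16:23146286-23146535, + strand: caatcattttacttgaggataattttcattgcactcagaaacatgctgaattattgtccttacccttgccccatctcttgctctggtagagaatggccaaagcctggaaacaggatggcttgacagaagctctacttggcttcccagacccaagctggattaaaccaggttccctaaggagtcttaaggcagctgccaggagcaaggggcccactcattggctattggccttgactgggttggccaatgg
Cidec, chr6:113434765-113435014, - strand: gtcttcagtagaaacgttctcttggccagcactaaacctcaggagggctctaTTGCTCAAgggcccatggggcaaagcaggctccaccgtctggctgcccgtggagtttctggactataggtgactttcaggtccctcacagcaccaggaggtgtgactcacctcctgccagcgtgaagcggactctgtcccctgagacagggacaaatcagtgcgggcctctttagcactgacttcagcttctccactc
Lep, chr6:29059971-29060220, + strand: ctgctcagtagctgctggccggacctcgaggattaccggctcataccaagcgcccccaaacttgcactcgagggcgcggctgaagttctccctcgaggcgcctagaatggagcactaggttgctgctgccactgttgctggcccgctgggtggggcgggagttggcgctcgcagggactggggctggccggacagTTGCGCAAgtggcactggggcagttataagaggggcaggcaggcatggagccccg
Pparg, chr6:115421816-115422065, + strand: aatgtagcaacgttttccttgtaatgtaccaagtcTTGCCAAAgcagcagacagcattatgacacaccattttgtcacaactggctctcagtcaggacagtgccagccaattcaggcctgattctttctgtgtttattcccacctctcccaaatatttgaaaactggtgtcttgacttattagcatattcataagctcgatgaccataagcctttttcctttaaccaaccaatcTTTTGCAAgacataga
The match in Lep, TTGCGCAA, lies 55 bases before the start, and that in Cidec, TTGCTCAA, 198 bases before it. The Pparg start shown, 1 of 3 listed, has TTGCCAAA at 215 bases and TTTTGCAA at 16 bases before it. The motif was found in 3 of the 9 starts, all 3 of them shown, against 9.56% of the 32851 starts in the table. The starts not shown, another of Cidec, others of Pparg and those of Pck1 and Retn, had no match. AGGTCANAGGTCA, the direct repeat that PPARγ binds with its partner RXR, was found on either strand in 0 of the 9 and in 0.0335% of all starts. The matches are a description of these letters and were not tested as sites.

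Arrays had trimmed mean intensities between 359 and 548 as deposited and were scaled to a common value, and Pearson's r between replicates, across genes, was 0.974 to 0.988. Every level given is a scaled intensity, and every difference is on the log2(intensity + 32) scale with its standard error (SE) from limma, which understates the change of dim genes. A gene was counted as higher or lower where its limma p-value, adjusted by Benjamini and Hochberg's method over all 9058 genes, was under 0.05. Esr1, part of which the transgene carries, lay between 80.7 and 408 on the 8 transgenic arrays and between 13.3 and 50.0 on the 8 wild-type arrays. Markers of the labelled tissue were bright, with mean intensities over 16 arrays of 14267 for Krt10, a keratin of the outer epidermis, and 13314 for the collagen gene Col1a2. Acta1, the actin of skeletal muscle, averaged 12308, so the samples included the muscle under the skin.

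After 7 days, transgenic skin had lower levels of 7 of the 8 fat cell genes than at day 0. The share of all genes that were lower in this comparison was 20.1%, with 38.7% called in either direction. The members were chosen with earlier results known, so setting their count beside this share describes the list and does not test it. The 8 differences ranged from -2.70 to -0.66 with a median of -1.37, where the median of all genes was 0.01. The groups did not overlap for any of the 8, and that was so for 59.6% of all genes. In whole skin, fewer fat cells, less RNA per fat cell and a larger share of RNA from other tissue cannot be told apart.

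**Figure D1:**
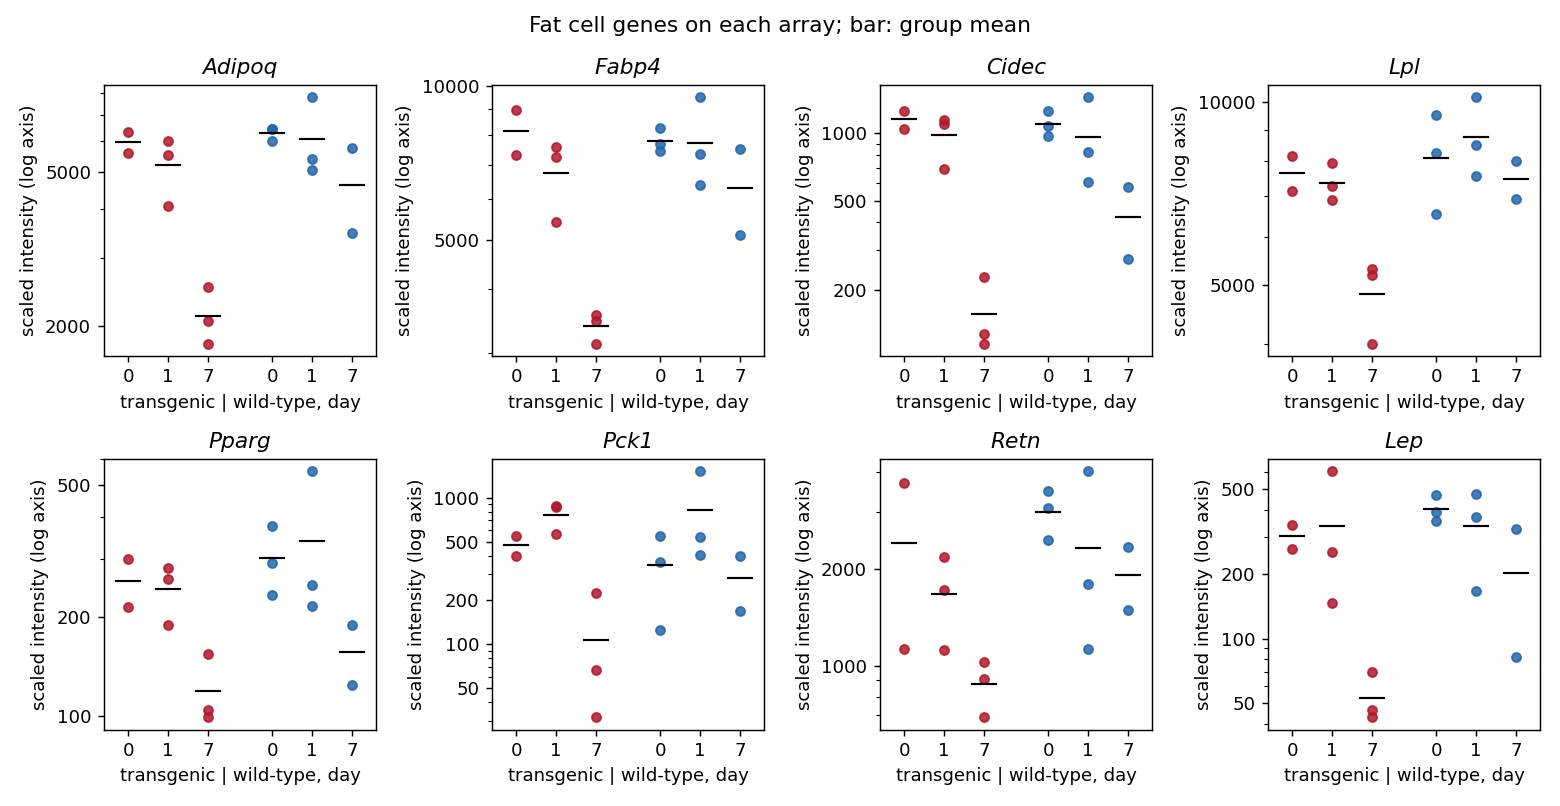
Scaled intensity (log axis) of each fat cell gene on each of 16 arrays, with transgenic groups left (red) and wild-type groups right (blue), by day of 4-hydroxytamoxifen. Points are arrays and bars are group means. Transgenic day 7 is the lowest group for all 8 genes. The 2 wild-type day 7 arrays stand apart from each other, as do those of wild-type day 1.

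Of the hormone genes, Adipoq had intensities of 2053, 1798 and 2510 on the 3 transgenic day 7 arrays, against 6349 and 5582 at day 0. Its level at day 7 was 35.5% of that at day 0 and the difference was -1.49 ± 0.21 (SE, limma, adjusted p = 5.51e-05). All 3 day 7 arrays lay below both day 0 arrays by a wide margin. Lep, the satiety hormone whose level follows the amount of stored fat, had 46.3, 42.8 and 69.7 at day 7, against 340 and 262 at day 0, and fell by 1.97 ± 0.49 (SE, limma, adjusted p = 0.0047). At 17.6% of its day 0 level, Lep was close to the dim end of the array, where the added 32 shrinks a difference. Retn, a hormone made mainly by fat cells in mice, had 911, 690 and 1024 at day 7, against 3697 and 1125 at day 0. Its difference was -1.21 ± 0.47 and missed the threshold (SE, limma, adjusted p = 0.053). The 2 day 0 arrays of Retn differed more from each other than those of any other member. Without replicate 2 at day 0 the difference was -2.06, and without replicate 1 at day 0 it was -0.37. Each of these fits assumed that the remaining day 0 array varies like the other groups.

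Of the genes of lipid uptake and storage, Cidec, the droplet protein, had the largest change. It had 127, 115 and 227 on the transgenic day 7 arrays, against 1261 and 1049 at day 0. The level at day 7 was 13.5% of that at day 0 and the difference was -2.70 ± 0.34 (SE, limma, adjusted p = 1.45e-05), with a 95% interval of -3.42 to -1.98. Fabp4 had 3460, 3132 and 3555 at day 7, against 8984 and 7314 at day 0, and fell by 1.26 ± 0.18 (SE, limma, adjusted p = 5.05e-05). Its 3 day 7 arrays were close together. Lpl, which muscle and macrophages also make, had 4013, 5317 and 5190 at day 7, against 8147 and 7144 at day 0. It had the smallest change of the 8, -0.66 ± 0.16 (SE, limma, adjusted p = 0.0034), with an interval of -0.999 to -0.329 that does not reach that of Cidec. Pck1 had 66.8, 31.6 and 224 at day 7, against 549 and 401 at day 0. Replicate 3 at day 7 stood well above the other Pck1 arrays of its group, and the difference was -2.10 ± 0.61 (SE, limma, adjusted p = 0.013).

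Pparg, the regulator, had 154, 99.3 and 104 on the transgenic day 7 arrays, against 299 and 214 at day 0, a difference of -0.93 ± 0.31 (SE, limma, adjusted p = 0.025). The calls of Pparg and Pck1 rest on few arrays: without replicate 1 of transgenic day 0 their adjusted p-values in limma were 0.19 and 0.093, and without replicate 2 of transgenic day 7 they were 0.074 and 0.056. Pparg also missed the threshold without replicate 3 of transgenic day 7 (limma, adjusted p = 0.060). For 6 of the 8 genes all 3 transgenic day 7 arrays lay below all other 13 arrays of the study, which held for 13% of all genes. The exceptions were Pparg, whose lowest other array was replicate 1 of wild-type day 7 at 124, and Pck1, whose lowest other array was replicate 2 of wild-type day 0 at 124.

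Other probe sets of the same genes were compared where the array had them. Fabp4 was read by 4 probe sets, and 3 of them fell in transgenic skin at day 7 relative to day 0, by 1.26, 1.75 and 1.21. The dimmest of the 4, whose group means lay between 106 and 144, had a difference of -0.19 ± 0.30 that missed the threshold (SE, limma, adjusted p = 0.65). In wild-type skin its difference was 0.22, opposite in sign to the other 3 and also past no threshold. The additional Lpl probe set fell by 0.77 ± 0.27 (SE, limma, adjusted p = 0.038). The additional Pck1 probe set was below the filter and not tested.

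Against day 1, transgenic day 7 had a like count. Again 7 of the 8 genes were lower, where 22.7% of all genes were, and the groups did not overlap for any of the 8, as for 52.4% of all genes. This comparison shares the day 7 arrays with the one above. Pck1, which had 862, 562 and 882 at day 1, had the largest difference here, -2.75 ± 0.54 (SE, limma, adjusted p = 0.00081). Retn was again the exception, at -0.88 ± 0.42 (SE, limma, adjusted p = 0.10).

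At day 1 itself none of the 8 genes was past the threshold in either genotype, and in limma none had an unadjusted p under 0.05. That unadjusted p was under 0.05 for 26.7% of all genes in transgenic skin and 36.2% in wild-type skin. Among all genes 10.8% were called at day 1 against day 0 in transgenic skin, and 22.3% in wild-type skin. Transgenic differences of the members at day 1 lay between -0.34 and 0.65, and wild-type differences between -0.56 and 1.15. The upper end of both ranges was Pck1, a gene that fasting and glucocorticoids raise in liver. It had 1524, 538 and 406 in wild-type skin at day 1, against 362, 124 and 550 at day 0, and the difference of 1.15 ± 0.54 missed the threshold (SE, limma, adjusted p = 0.14). Replicate 1 of wild-type day 1 was the highest of all 16 arrays for 7 of the 8 genes, Lep being the exception, and replicate 2 of transgenic day 7 the lowest for 7, Lpl being the exception.

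In wild-type skin the 8 genes also had lower mean levels at day 7 than at day 0, but only Cidec passed the threshold. The share of all genes called lower was 5.96%. The members' median difference was -0.58, where that of all genes was -0.03, and 4 of the 8 had an unadjusted p under 0.05 in limma, as did 26.5% of all genes. Cidec had 275 and 574 at day 7, against 1258, 969 and 1079 at day 0, and fell by 1.39 ± 0.34 (SE, limma, adjusted p = 0.015). Without replicate 1 of wild-type day 7 this was -0.90 (limma, adjusted p = 0.24) and no member was called. Pparg had the next smallest p, with 124 and 189 at day 7, against 377, 292 and 233 at day 0, a difference of -0.82 ± 0.31 (SE, limma, adjusted p = 0.095). Lpl had 6924 and 7997 at day 7, against 9515, 8249 and 6550 at day 0, groups that overlap, with an interval of -0.44 to 0.23. Against wild-type day 1 none of the 8 passed the threshold in limma, where 3.15% of all genes did, and 3 had an unadjusted p under 0.05, as did 18.8% of all genes.

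The 2 wild-type day 7 arrays differed from each other in the fat cell genes more than in most genes, and replicate 2 was the higher for all 8. Adipoq had 5745 on replicate 2 and 3480 on replicate 1, and Lep had 325 on replicate 2 and 81.7 on replicate 1. The ratio of replicate 2 to replicate 1 ran from 1.15 for Lpl, through 1.65 for Adipoq and 2.09 for Cidec, to 3.98 for Lep. On the log2 scale the members differed by a median of 0.68, while the absolute difference of all genes had a median of 0.14. The mean level of the 8 members was higher on replicate 2 by 0.80 on the log2 scale, and the other lists differed less. Genes of triglyceride and fatty acid synthesis were higher on replicate 2 by 0.22, those of lipolysis by 0.16 and endothelial markers by 0.07, while skeletal muscle markers were lower by 0.15 and keratinocyte markers by 0.21. Macrophage markers differed by 0.01. Every comparison with wild-type day 7 therefore rests on a pair of arrays that disagree about these genes.

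At day 7, transgenic skin was lower than wild-type skin in 4 of the 8 genes, where 21.0% of all genes were lower and 40.5% were called in either direction. The members' differences had a median of -1.08. Adipoq, with 2053, 1798 and 2510 in transgenic skin against 3480 and 5745 in wild-type skin, differed by -1.08 ± 0.21 (SE, limma, adjusted p = 0.00096). Fabp4 had 3460, 3132 and 3555 in transgenic skin, against 5101 and 7510 in wild-type skin, and differed by -0.87 ± 0.18 (SE, limma, adjusted p = 0.0013). Cidec differed by -1.24 ± 0.34 and Lpl by -0.63 ± 0.16, and the genotypes did not overlap for 6 of the 8 genes, nor for 63% of all genes. Lep, with 46.3, 42.8 and 69.7 in transgenic skin against 81.7 and 325 in wild-type skin, lay just beyond the threshold at -1.26 ± 0.49 (SE, limma, adjusted p = 0.051). Retn and Pck1 differed by -1.08 ± 0.47 and -1.33 ± 0.61 (SE, limma, adjusted p = 0.079 and 0.094). Pparg did not separate the genotypes at day 7: its 154, 99.3 and 104 in transgenic skin overlapped the 124 and 189 in wild-type skin, with an interval of -0.97 to 0.34. Without replicate 2 of wild-type day 7 the count of lower members was 2.

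Markers of muscle, endothelium and macrophages were also lower in the same comparison. Of 12 skeletal muscle markers all 12 were lower in transgenic than in wild-type skin at day 7, with a median of -1.01 beside the members' -1.08, and their summed intensity was 60808 to 71124 in transgenic skin and 106428 to 122121 in wild-type skin. Of 11 endothelial markers 10 were lower, with a median of -0.62 and sums of 2838 to 3477 in transgenic skin and 4750 to 5102 in wild-type skin. Of 11 macrophage markers 10 were lower, with a median of -0.92 and sums of 15890 to 26067 in transgenic skin and 35941 to 36637 in wild-type skin. The macrophage sums of wild-type skin at day 0, 17416 to 19529, lay within the transgenic range at day 7. Of 6 sebaceous gland markers 1 was lower and 0 higher, with a median of -0.17. Growing hair markers, a list chosen after values had been seen, had sums of 31393 to 52355 in transgenic skin and 611 to 716 in wild-type skin. The part of these cell types in the genotype difference of the fat cell genes was not tested.

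**Figure D2:**
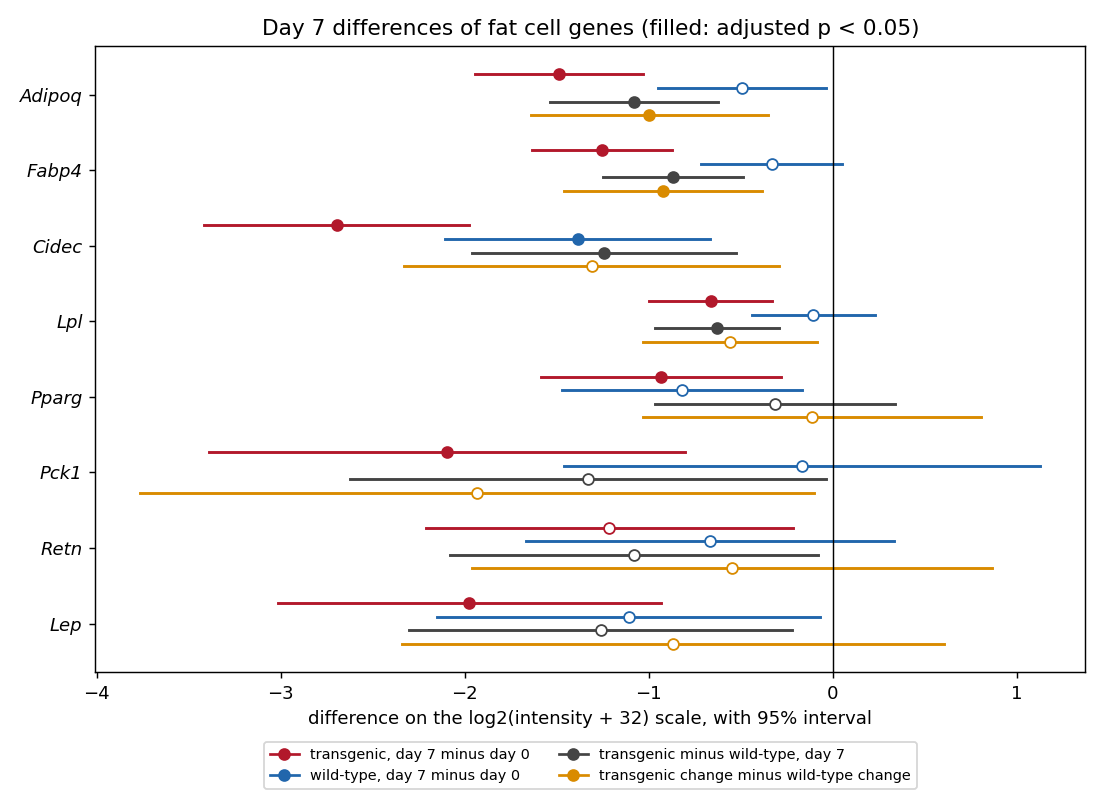
Day 7 differences of the 8 genes on the log2(intensity + 32) scale with 95% intervals of the fit. Rows within a gene, from the top, are transgenic day 7 minus day 0, wild-type day 7 minus day 0, transgenic minus wild-type at day 7, and the transgenic change minus the wild-type change. Filled points passed the threshold. All points lie below 0, and those of Cidec in transgenic skin lie farthest to the left among filled points.

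The test of whether the change from day 0 to day 7 differed between genotypes was passed by 2 of the 8 genes, Adipoq and Fabp4. Of all genes 11.7% passed it in the lower direction and 23.8% in either. The transgenic change minus the wild-type change was -0.996 ± 0.304 for Adipoq (SE, limma, adjusted p = 0.027) and, for Fabp4, -0.92 ± 0.25 (SE, limma, adjusted p = 0.016). Cidec had a larger but less certain difference of -1.31 ± 0.48 (SE, limma, adjusted p = 0.059). For Pparg the difference was -0.11 with an interval of -1.03 to 0.81, so neither an equal change nor an unequal one is shown. The same test was passed in the lower direction by 8 of 12 muscle markers, 6 of 11 endothelial markers and 9 of 11 macrophage markers. The count of 2 was 0 without replicate 1 of transgenic day 0 or without replicate 2 of wild-type day 7, 1 without replicate 1 or replicate 2 of transgenic day 7 or replicate 3 of wild-type day 0, and 4 without replicate 3 of transgenic day 7. No member passed the corresponding test for the change to day 1, where 0.287% of all genes did. None had an unadjusted p under 0.05 in limma there, where 15.3% of all genes did.

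Before treatment none of the 8 genes differed between transgenic and wild-type skin past the threshold, where 0.011% of all genes did. None had an unadjusted p under 0.05 in limma, where 4.56% of all genes did. Adipoq differed by -0.08 ± 0.21, with 6349 and 5582 in transgenic skin against 6452, 6464 and 6016 in wild-type skin, and Cidec by 0.07 ± 0.34. The genotypes did not overlap for 1 of the 8, and that was so for 18.9% of all genes. At day 1 none differed either, where 1.30% of all genes did. Again none had an unadjusted p under 0.05 in limma, where 20.1% of all genes did.

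Other genes of fat cell biology were read from 8 lists, which are not specific to fat cells because muscle, endothelium, sebaceous glands and keratinocytes use many of the same genes. In transgenic skin at day 7 relative to day 0, 20.1% of all genes were lower and 38.7% were called in either direction. There, 3 of 5 lipolysis genes were lower and 0 higher. They were Pnpla2, the enzyme that starts the breakdown of stored triglyceride, at -1.35 ± 0.26, its co-activator Abhd5 at -0.53 ± 0.10, and its inhibitor G0s2 at -1.02 ± 0.34 (SE). Of the 12 genes of triglyceride and fatty acid synthesis, 6 were lower and 1 higher. Dgat2, which completes the triglyceride molecule, fell by 0.97 ± 0.14, and Gpam, which begins it, fell by 0.81 ± 0.11 (SE). The gene that was higher was Scd2, a fatty acid desaturase, at 1.67 ± 0.15 (SE). The median differences were -0.53 for lipolysis and -0.68 for synthesis, against 0.01 for all genes.

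Of 10 genes of glucose and fatty acid uptake, 7 were lower and 0 higher at day 7 relative to day 0 in transgenic skin. The receptor gene Vldlr had a mean intensity of 282 ± 45.9 at day 7 and 984 ± 212 at day 0 (SD, n = 3 and 2) and fell by 1.69 ± 0.16 (SE, limma, adjusted p = 1.24e-06). The caveolae genes Cav2 and Cav1, which endothelium also expresses strongly, fell by 0.74 ± 0.09 and 0.84 ± 0.11 (SE). Among 11 transcription factors 5 were lower and 1 higher. Mlxipl, which encodes the glucose-sensing factor ChREBP, fell by 1.35 ± 0.16 and Klf15 by 0.73 ± 0.19, while Cebpb, an early differentiation factor used by many cells, was higher by 0.37 ± 0.09 (SE).

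The remaining lists were mixed. Of 6 other droplet protein genes, Plin4 (-1.25 ± 0.21) and Bscl2 (-0.66 ± 0.14), which encodes seipin, were lower and Hilpda (0.46 ± 0.18) was higher (SE). Of 6 other secreted products, Rbp4 (-1.45 ± 0.35) and Nampt (-0.44 ± 0.10) were lower and Agt, the angiotensin precursor, was higher (1.196 ± 0.202) (SE). Of 5 genes known from brown fat, 3 were lower and 1 higher. Cox8b (-2.03 ± 0.16) and Cox7a1 (-1.78 ± 0.22), mitochondrial subunits that muscle also uses, were lower, and Elovl3, which sebaceous glands and hair follicles also express, was higher (1.17 ± 0.19) (SE). Of 8 genes of fat cell progenitors, 5 were lower and 2 higher, with Cd34 (-1.12 ± 0.17), which endothelium and follicle stem cells share, and Pdgfrb (-0.63 ± 0.10) among the lower and Cd24a (0.90 ± 0.14) among the higher (SE).

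**Figure D3:**
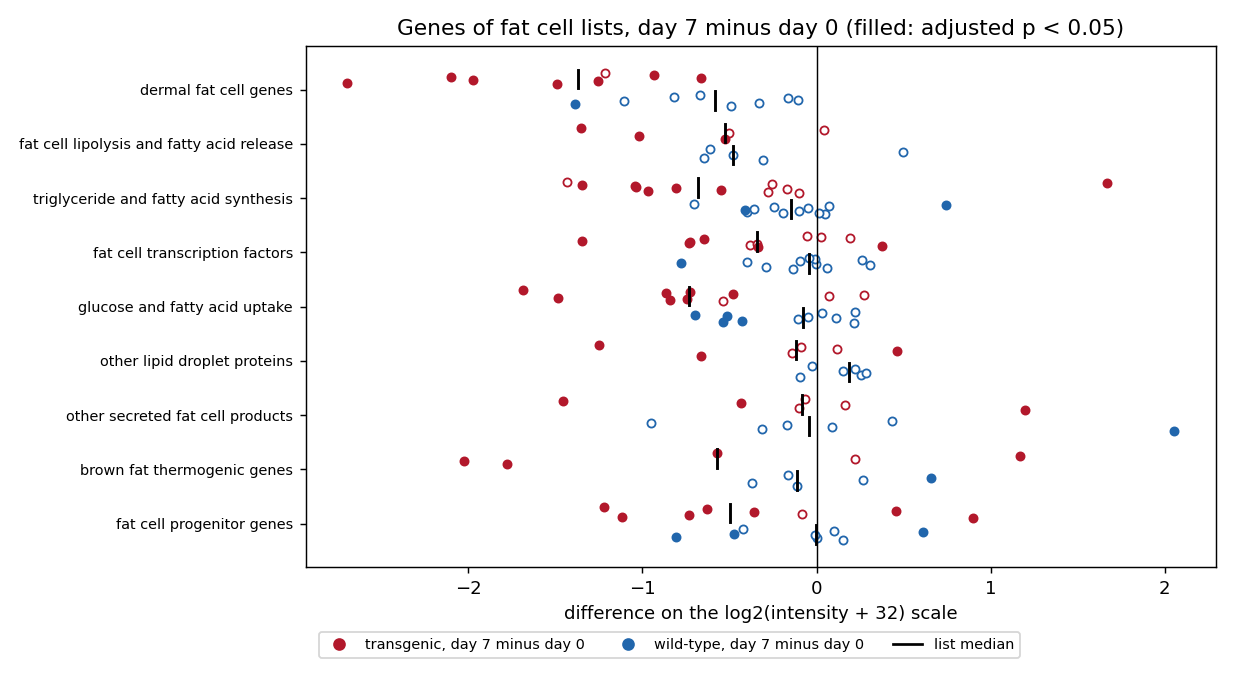
Day 7 minus day 0 differences of the genes of each fat cell list on the log2(intensity + 32) scale, transgenic skin (red, upper row of each list) and wild-type skin (blue, lower row). Each point is a gene, filled where it passed the threshold, and black bars are list medians. The 8 fat cell genes have the lowest median of the lists in transgenic skin, -1.37.

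In wild-type skin at day 7 relative to day 0, fewer of these genes passed. Of all 9058 genes 5.96% were lower there, and 1036 were called in either direction. Among uptake genes 4 of 10 were lower, with Cav1 at -0.54 ± 0.11, Cav2 at -0.43 ± 0.09 and the insulin receptor substrate Irs1 at -0.51 ± 0.13 (SE). Klf15 fell by 0.78 ± 0.19 and Gpam by 0.41 ± 0.11 (SE). Agt was higher by 2.05 ± 0.20, Scd2 by 0.74 ± 0.15, Elovl3 by 0.66 ± 0.19 and Pdgfra, which marks progenitors and dermal fibroblasts, by 0.61 ± 0.13 (SE). The progenitor genes Dpp4 and Gata3 fell by 0.81 ± 0.17 and 0.47 ± 0.12 (SE). Of 5 lipolysis genes 0 passed in limma, with a median of -0.48.

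Markers of muscle and endothelium were also lower in transgenic skin at day 7 than at day 0, and those of other cell types varied. Of 12 skeletal muscle markers 10 were lower at day 7 than at day 0 and 0 higher, with a median of -0.96, and their summed intensity was 60808 to 71124 at day 7 and 98444 to 117625 at day 0. Of 11 endothelial markers 9 were lower and 0 higher, with a median of -0.53, and their summed intensity was 2838 to 3477 at day 7 and 4350 to 4393 at day 0. Growing hair markers, a list chosen after values had been seen, were higher in 11 of 11 cases, with sums of 31393 to 52355 at day 7 and 598 to 761 at day 0. Of 11 macrophage markers 0 passed in either direction in limma, and of 11 keratinocyte markers 4 were lower and 0 higher. Dermal fibroblast markers were mixed, with 3 of 12 higher and 2 lower, as were those of sebaceous glands, with 1 of 6 higher and 2 lower. No kept marker of these lists was at 0 on any array. The part of these cell types in the fall of the fat cell genes was not tested.

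The muscle and endothelial markers were also used as a scale within the array, though most were themselves lower in transgenic skin at day 7. Scaling to them raises all values on the transgenic day 7 arrays. Arrays were scaled to the mean of these 23 markers, a setting chosen after the data had been seen. The median of all genes at day 7 relative to day 0 in transgenic skin was then 0.67. On that scale 80.3% of all genes were called, and 94.8% of the genes called were higher. The members' median was then -0.66, and 5 of the 8 were lower: Adipoq, Fabp4, Cidec, Pck1 and Lep. On that scale Lpl had the opposite sign, 0.05, and Pparg was at -0.33 (limma, adjusted p = 0.74 and 0.31). For the genotypes at day 7 and for the genotype difference in the change to day 7, 0 members were called on that scale in limma. The median of all genes was 0.78 and 0.76 there, so these counts follow in part from the scale itself. Of all genes 82.7% and 70.9% were called there, and 96.8% and 98.1% of those were higher.

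**Figure D4:**
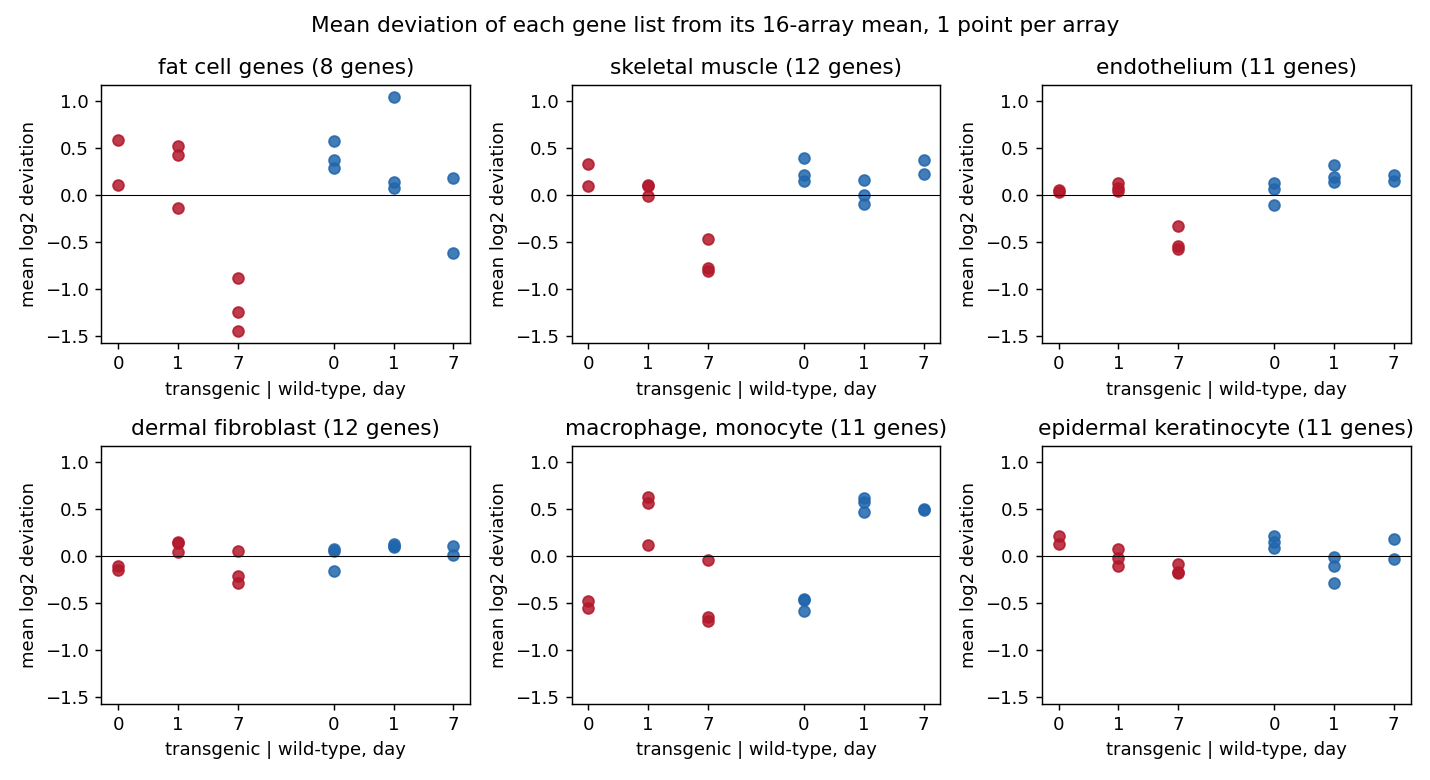
Mean log2 deviation of 6 gene lists from their own mean over 16 arrays, 1 point per array, transgenic left (red) and wild-type right (blue), by day. In transgenic skin at day 7 the fat cell, muscle and endothelial lists are all low. Of the 6 lists in wild-type skin at day 7 the fat cell list spreads most, from -0.62 to 0.18. At day 1 in wild-type skin it spreads from 0.08 to 1.05.

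The 3 transgenic day 7 arrays differed from each other in fat cell, muscle and growing hair genes, and are too few to show whether these lists move together. Replicate 3 had the smallest fall in fat cell genes, with a mean deviation from the 16-array mean of -0.89, against -1.25 and -1.45 on replicates 1 and 2. It also had the highest muscle level of the group, -0.47 against -0.78 and -0.81, and the lowest growing hair level, 3.54 against 4.36 and 4.74. In wild-type skin at day 7 muscle and endothelial markers were at 0.22 to 0.37 and 0.14 to 0.22, none of 12 muscle markers and 1 of 11 endothelial markers, which was higher, passed against day 0, and 10 of 11 macrophage markers were higher.

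Over the 16 arrays each member was compared with the mean of the other 7. Pearson's r was highest for Adipoq (0.977), Fabp4 (0.975) and Cidec (0.955) and lowest for Pck1 (0.764) and Retn (0.813). The 8 genes outside the list whose levels most resembled the members' mean were Amy1 (r = 0.986), Plaat3 (0.983), Aoc3 (0.980), Cavin2 (0.959), Pnpla2 (0.959), Prkd1 (0.958), Epb41l2 (0.956) and Nos3 (0.953). These values describe 16 arrays that share groups and are given without a test. All 8 of these genes were, like the members, higher on replicate 2 of wild-type day 7 than on replicate 1, by a ratio of 1.05 for Epb41l2 to 2.26 for Amy1. Both arrays were among the 16 used to choose these genes, so this likeness follows in part from the choice. Plaat3 encodes a phospholipase abundant in white fat, Aoc3 an amine oxidase of fat cells and blood vessels, Cavin2 a caveolae protein, Nos3 the endothelial nitric oxide synthase, and Amy1 an amylase. Amy1 had a mean intensity of 78.7 ± 21.7 in transgenic skin at day 7 and 375 ± 192 at day 0 (SD, n = 3 and 2). Plaat3 averaged 410 ± 13.9 at day 7 and 1141 ± 285 at day 0 in transgenic skin, and 802 ± 184 at day 7 and 1158 ± 127 at day 0 in wild-type skin (SD, n = 3 and 2, then 2 and 3). Aoc3 averaged 214 ± 39.7 and 611 ± 96.8 in transgenic skin at days 7 and 0 (SD, n = 3 and 2).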

How the data were processed

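Per the labels, cRNA from total skin RNA was hybridised to 16 arrays. The authors deposited 1 linear intensity per probe set; which software summarised the probes is not stated in the labels. Arrays were scaled to a common trimmed mean (2% off each end, factors 0.825 to 1.26), and log2(intensity + 32) was taken from the deposited intensity. Kept were 15058 probe sets above the 40th percentile on at least 2 arrays, and the brightest with 1 symbol stood for each of 9058 genes. Group means of all 6 groups were fitted in limma 3.58.1 (R 4.3.3; eBayes with a trend; 10 residual degrees of freedom), two-sided, for 11 comparisons. The fit was tested on simulated data. Figures used matplotlib 3.10.9. The number of arrays limits precision.

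The members and lists were chosen with earlier results of these data known, and the growing hair list and the scaling to muscle and endothelial markers were chosen after seeing the data. From each other list up to 3 genes with the smallest adjusted p at day 7 against day 0 in each genotype were named, from marker lists at most 2 bright genes, and the 8 genes most like the members by r. Alternatives were other scalings, added values, filters, probe set rules, variance models, sets of groups, a replicate block and leaving out each array. Same-numbered arrays of different groups deviated together (r over 0.1) in 7 of 36 pairs, and differently numbered ones in 12 of 70. Numbers were therefore not taken to pair samples.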

Additional observations from a re-analysis of the deposited data

Results flagged for a closer look

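Adipoq and Fabp4 were flagged because their change from day 0 to day 7 differed between the genotypes by a test of the difference itself. Of all genes 23.8% passed this test, so a pass does not set these genes apart from the rest. The transgenic change minus the wild-type change was -0.996 ± 0.304 for Adipoq (SE, limma, adjusted p = 0.027) and -0.92 ± 0.25 for Fabp4 (SE, limma, adjusted p = 0.016). Over 28 other settings, which include leaving out each array, it ran from -1.35 to -0.19 for Adipoq and from -1.20 to -0.11 for Fabp4. Neither gene was called under the scaling to muscle and endothelial markers, which raises all values on the transgenic day 7 arrays and so cannot decide the matter.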

How the results depend on the processing

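Each result was recomputed under 12 other settings and without each of the 16 arrays. For transgenic day 7 against day 0 the count of fat cell genes past the threshold was 7, lay between 5 and 8 without each array in turn, and was 8 with no further scaling. Against day 1 it was 6 to 7 without each array and 8 with only the groups compared. Under the scaling to muscle and endothelial markers it was 4, where 80.8% of all genes were called. For wild-type day 7 against day 0 the count of 1 became 2 with only the groups compared, 0 without replicate 1 of wild-type day 7 and 2 without replicate 1 of wild-type day 1. Against wild-type day 1 the count of 0 became 1 with no further scaling, 1 under the muscle and endothelial scaling and 1 without replicate 2 of wild-type day 1. Between genotypes at day 7 it ranged from 2 to 6 without each array, and for the genotype difference in the change to day 7 from 0 to 4. That count was 4 with no further scaling and 1 with the mean of all kept probe sets. Both were 0 under the muscle and endothelial scaling, where 82.7% and 70.9% of all genes passed, most of them higher. That scaling also reversed Lpl, to 0.0544 and 0.0450 in transgenic skin at day 7 against days 0 and 1 and to 0.196 between genotypes at day 7. Counts for days 0 and 1 stayed at 0 under all settings.

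With the replicate block, 2 genes passed in wild-type skin at day 7 against day 0, and no other count of fat cell genes moved by over 1.5 times. Of all genes, 4 passed for the genotype difference in the change to day 1 with the block, in place of 26; over the 12 settings this count was 4 to 51, and that between genotypes at day 1 was 16 to 150 in place of 118. Of 2464 values of single genes, 77 changed sign with no call on either side, the largest 0.62 in size. Without further scaling 1776 genes passed for transgenic day 7 against day 0 in place of 3502, of which 29.3% were higher in place of 48.1%, and the median of all genes was -0.13. It gave 1892 in place of 4009 against day 1, 257 in place of 1036 in wild-type skin at day 7 against day 0 (64.2% higher in place of 47.9%), 1744 in place of 3669 between genotypes at day 7, and 724 in place of 2154 for the difference in the change. Under the muscle and endothelial scaling 7277 passed for transgenic day 7 against day 0. The cause of these shifts was not tested.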
